A study of Mus musculus with 3 samples.

Results

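Among T cells that infiltrated the sciatic nerves of neuropathic NOD.AireGW/+ mice, 378 of 6634 cell barcodes carried a productive T cell receptor (TCR) α chain (TRA) and no productive β chain (TRB). They were chosen from the filtered contigs of each scTCR-Seq library, keeping productive TRA and TRB contigs with a CDR3, the loop made at the junction of the rearranged segments, and taking barcodes with at least 1 TRA and no TRB. These cells are called TRA-only cells here, and the 4891 barcodes with both chains are called paired cells. All animals were of 1 genotype and 1 condition, NOD.AireGW/+ mice that had developed spontaneous autoimmune neuropathy, and their age is not given in the labels. CD45+ cells sorted from digested nerve made up 3 libraries from 4 mice. Replicates 1 and 2 held 1 mouse each and replicate 3 pooled 2 mice, which cannot be told apart. The sort was on CD45 alone, so the cells are neither limited to CD4+ T cells nor divided by phenotype here.

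A T cell rearranges its β chain in the thymus before its α chain, by joining V, D and J segments, and a cell that fails to make an in-frame β chain on both alleles dies before it can make an α chain. The α chain has V and J segments only and is not held to 1 allele, so a T cell may carry a second TRA. A mature αβ T cell therefore carries a β chain beside its α chain. The random bases added at the junctions make a rearrangement a tag of the clone, so a TRA-only cell can be set beside paired cells with the same TRA, and their TRB is the one implied for it. The other allele of the TRB locus may keep an out-of-frame rearrangement whose transcript is also captured.

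The TRAs printed next are the 3 found in most TRA-only cells of each library, with ties broken by the number of paired cells, and each is followed by the TRB of the paired cells that share it. The third place was a tie of 5 TRAs with 2 TRA-only cells each in replicate 1 and of 58 TRAs with 1 each in replicate 3. Each is the DNA of the CDR3 from the conserved cysteine codon to the codon of the closing phenylalanine, as deposited. Capitals mark bases that matched neither the germline V nor the germline J segment of GRCm38. For TRB they include the D segment, which was not matched, and since that reference is C57BL/6J they can include bases at which NOD differs.
Replicate 1, TRAV12D-2/TRAJ16: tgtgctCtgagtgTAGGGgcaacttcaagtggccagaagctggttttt
Replicate 1, TRBV19/TRBJ2-4: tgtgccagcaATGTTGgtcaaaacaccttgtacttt
Replicate 1, TRAV10N/TRAJ23: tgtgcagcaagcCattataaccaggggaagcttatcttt
Replicate 1, TRBV19/TRBJ1-4: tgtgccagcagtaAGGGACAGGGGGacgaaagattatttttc
Replicate 1, TRAV17/TRAJ45: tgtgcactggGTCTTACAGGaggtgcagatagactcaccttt
Replicate 1, TRBV5/TRBJ2-7: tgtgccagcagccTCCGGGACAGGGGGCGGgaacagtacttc
Replicate 2, TRAV3-3/TRAJ15: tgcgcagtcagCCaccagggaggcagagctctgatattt
Replicate 2, TRBV19/TRBJ1-5: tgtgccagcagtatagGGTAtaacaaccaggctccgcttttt
Replicate 2, TRAV14D-1/TRAJ23: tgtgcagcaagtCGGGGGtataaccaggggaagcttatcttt
Replicate 2, TRBV20/TRBJ2-7: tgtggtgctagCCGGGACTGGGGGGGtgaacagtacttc
Replicate 2, TRAV7D-3/TRAJ27: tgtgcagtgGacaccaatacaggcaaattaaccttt
Replicate 2, TRBV2/TRBJ2-7: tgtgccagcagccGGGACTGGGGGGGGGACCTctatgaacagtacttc
Replicate 3, TRAV3-3/TRAJ26: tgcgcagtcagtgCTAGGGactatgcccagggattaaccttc
Replicate 3, TRBV31/TRBJ2-7: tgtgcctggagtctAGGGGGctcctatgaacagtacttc
Replicate 3, TRAV6N-7/TRAJ34: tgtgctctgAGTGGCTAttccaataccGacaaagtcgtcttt
Replicate 3, TRAV13-1/TRAJ6: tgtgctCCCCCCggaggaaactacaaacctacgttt
Replicate 3, TRBV19/TRBJ1-4: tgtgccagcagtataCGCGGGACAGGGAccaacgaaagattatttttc
The TRAs had 1 to 10 unmatched bases and the TRBs 4 to 19. The TRAV10N/TRAJ23 TRA of replicate 1 and the TRAV7D-3/TRAJ27 TRA of replicate 2 held 1 unmatched base each. Over all distinct TRAs of TRA-only cells that could be matched, the mean was 3.92 unmatched bases in replicate 1, 4.69 in replicate 2 and 3.53 in replicate 3. Paired cells had means of 4.47, 4.51 and 4.47, so the order of the 2 groups differed between libraries. The mean CDR3 length was 13.6, 13.6 and 13.7 residues in TRA-only cells and 13.6 residues in paired cells of each library.

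TRA-only cells were 121 of the 2374 T cells (5.10%, interval 4.25% to 6.06%) of replicate 1, 194 of the 3555 (5.46%, 4.73% to 6.26%) of replicate 2 and 63 of the 705 of replicate 3 (8.94%, 6.94% to 11.3%). The interval of replicate 3 did not overlap those of the other two, and the mean was 6.50% ± 2.12 (SD, n = 3 libraries). Cells with TRB and no TRA were more frequent in every library, at 16.2%, 20.7% and 34.6% of T cells. Of cells with a TRA, 6.08%, 6.88% and 13.7% lacked a TRB. Intervals are exact Clopper-Pearson 95% intervals, which cover counting error only, as if each cell were independent. The filtered contigs of the libraries had 34630, 41338 and 5142 UMIs, of which the TRAs of TRA-only cells held 506, 861 and 259. Replicates 1 and 2 shared 7 cell barcodes and replicates 2 and 3 shared 3, none of them a TRA-only cell.

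**Figure D1:**
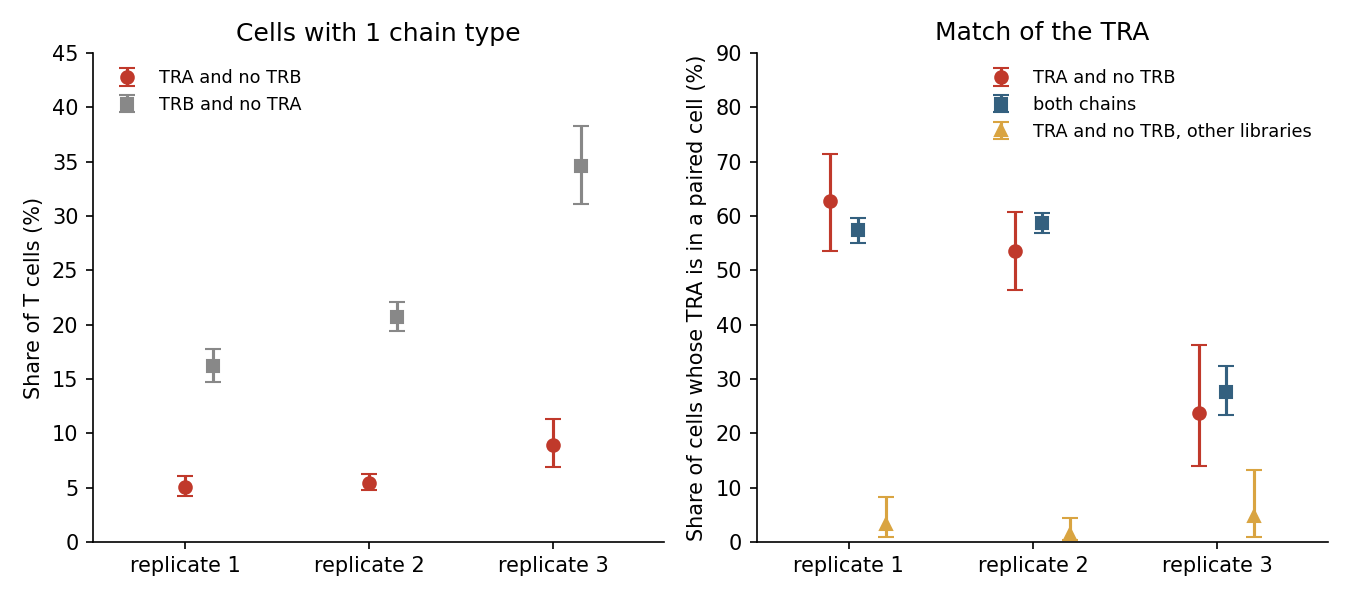
Left, the share of T cells with TRA and no TRB (circles) or TRB and no TRA (squares) in each library, in percent. Right, the share of cells whose TRA was also in a paired cell, for TRA-only cells within the library (circles), paired cells against other paired cells (squares) and TRA-only cells against the other libraries (triangles), in percent; bars are exact 95% intervals. TRA-only shares lie at 5.10%, 5.46% and 8.94%, and the circles and squares of the right panel overlap in each library.

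The TRA of a TRA-only cell had a median of 3 UMIs in replicate 1, 4 in replicate 2 and 3 in replicate 3, against 5, 4 and 3 in paired cells. The log2 ratio of medians was -0.25 ± 0.43 (SD, n = 3 libraries), and replicate 1 alone differed from 0 (exact two-sided sign-flip permutation test over libraries, p = 1, where the smallest p that 3 libraries can give is 0.25). No TRA-only cell had fewer than 2 UMIs on its TRA. Of cells whose TRA had 1 UMI, 0 of 162, 0 of 347 and 0 of 103 lacked a TRB. Barcodes with TRA only at 1 UMI, 3423, 293 and 167 per library, were all outside called cells. These counts of 0 thus depend on the cell calling of the deposited files and set no limit on the share. All called cells whose TRA had 1 UMI were paired cells, and they made up 8.67%, 13.2% and 25.9% of paired cells. Among cells with at least 2 TRA UMIs, a comparison added after the data were seen, the log2 ratio was -0.33 ± 0.58 (exact p = 1).

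In replicate 1, 13.0% of cells with 3 to 4 TRA UMIs lacked a TRB (interval 10.0% to 16.4%), 4.84% of those with 5 to 8 (3.35% to 6.73%) and 1.54% of those with 9 to 16 (0.567% to 3.32%). In replicate 2 the shares were 9.08%, 7.52% and 5.16%, with intervals that overlapped from each class to the next. In replicate 3 they were 20.1%, 14.1% and 21.4%, the last from 14 cells. The intervals at 3 to 4 and at 9 to 16 UMIs were apart in replicate 1 and overlapped in the other two. By the number of cells that shared a TRA, there was no common order. TRAs seen in 1 cell lacked a TRB in 5.95%, 7.78% and 14.6% of cells, and those seen in 6 to 20 cells in 8.43%, 8.27% and 10.0% of cells.

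**Figure D2:**
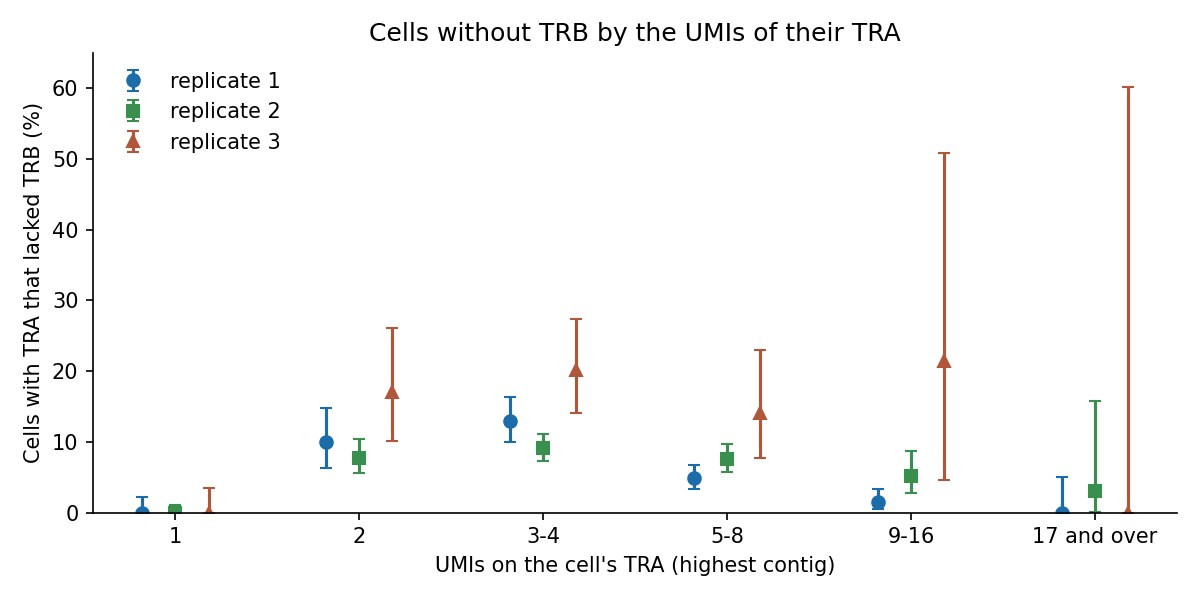
Share of cells with a TRA that lacked a TRB (y axis, percent) by the UMIs on the TRA contig with most UMIs (x axis, classes), per library, with exact 95% intervals. The share at 1 UMI is 0 in all 3 libraries, which depends on the cell calling. In replicate 1 the share is lower at 9 to 16 UMIs (1.54%) than at 3 to 4 (13.0%).

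The same TRA, by V gene, nucleotide CDR3 and J gene, was found in a paired cell of the library for 76 of the 121 TRA-only cells (62.8%, interval 53.6% to 71.4%) of replicate 1, 104 of the 194 (53.6%, 46.3% to 60.8%) of replicate 2 and 15 of the 63 of replicate 3 (23.8%, 13.98% to 36.2%). Replicate 3 was lowest. Paired cells shared their TRA with another paired cell in 57.4%, 58.7% and 27.6% of cells, so TRA-only cells were higher in replicate 1 and lower in the others. The mean difference was -1.17 percentage points ± 5.74 (SD, n = 3 libraries, exact sign-flip permutation test, p = 1). The TRA was found in a paired cell of another library for 4, 3 and 3 TRA-only cells, or 2.65% of the 378.

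The 378 cells held 309 distinct TRAs, 95, 154 and 60 per library, and each cell had exactly 1. Of these, 281 were in 1 TRA-only cell and 28 in more, and 177 had no paired cell in their library. Counted once for each distinct TRA, the share with a paired cell was 20.6 percentage points ± 11.9 above the share of paired TRAs found in a further paired cell. These 2 shares are not built alike, since a large clone is more likely to give a TRA-only cell and a paired TRA needs a second paired cell, so a difference of 0 is not the value of no difference and no test is given.

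Of the 9 printed TRAs, 4 were in more TRA-only than paired cells of their library. They are named by V and J gene in what follows, each name standing for the printed sequence. Since they were named for their many TRA-only cells, their shares without a TRB are a description. In replicate 1, TRAV12D-2/TRAJ16 was in 17 TRA-only cells and 249 paired cells, so that 6.39% lacked a TRB (interval 3.77% to 10.0%). TRAV10N/TRAJ23 was in 6 TRA-only cells and 11 paired cells, or 35.3% (14.2% to 61.7%). TRAV17/TRAJ45 was in 2 and 15, or 11.8% (1.46% to 36.4%). The interval of the largest clone held the 6.08% of all cells with a TRA in that library, and that of TRAV10N/TRAJ23 lay above it.

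In replicate 2, TRAV3-3/TRAJ15 was in 10 TRA-only cells and 7 paired cells, so that 58.8% lacked a TRB (interval 32.9% to 81.6%). TRAV7D-3/TRAJ27 was in 5 and 3, or 62.5% (24.5% to 91.5%). TRAV14D-1/TRAJ23 was in 7 and 29, or 19.4% (8.19% to 36.0%). All 3 intervals lay above the 6.88% of cells with a TRA that lacked a TRB in that library. The choice of TRAs with many TRA-only cells favours such shares, so this is a description and not a test.

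In replicate 3, TRAV3-3/TRAJ26 was in 3 TRA-only cells and 1 paired cell. TRAV6N-7/TRAJ34 was in 2 TRA-only cells and no paired cell, so no TRB was implied for it. TRAV13-1/TRAJ6 was in 1 TRA-only cell and 11 paired cells. None of these 9 TRAs was in a cell of another library.

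The paired cells named the missing chain for most of these clones. TRBV19 was the implied V gene for TRAV12D-2/TRAJ16 and TRAV10N/TRAJ23 of replicate 1 (with TRBJ2-4 and TRBJ1-4), TRAV3-3/TRAJ15 of replicate 2 (with TRBJ1-5) and TRAV13-1/TRAJ6 of replicate 3 (with TRBJ1-4). TRAV17/TRAJ45 implied TRBV5/TRBJ2-7, TRAV7D-3/TRAJ27 implied TRBV2/TRBJ2-7, and TRAV3-3/TRAJ26 implied TRBV31/TRBJ2-7. TRAV14D-1/TRAJ23 was paired with TRBV20/TRBJ2-7 in 28 of its 29 paired cells and had a further TRB in the data.

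A lone TRB was implied for 58, 62 and 15 TRA-only cells, 135 in all, while 18, 42 and 0 had a TRA seen with several TRBs. Of the 135 cells, 45 implied TRBV19 (28, 16 and 1 per library), 19 TRBV5 (5, 13 and 1), 11 TRBV13-1 (7, 3 and 1), 11 TRBV2 (3, 8 and 0), 9 TRBV31 (2, 3 and 4) and 8 TRBV13-3 (2, 4 and 2). The 17 cells of the largest TRA made up most of the TRBV19 cells of replicate 1.

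Against the paired cells of the same TRAs, edgeR's quasi-likelihood test with the library as a block called 2 of 12 TRBV genes tested (16.7%). For TRBV2 there were 3, 8 and 0 TRA-only cells against 4, 7 and 0 paired cells (log2 fold change 2.11, adjusted p = 0.00976), and 5 of the 8 cells of replicate 2 came from TRAV7D-3/TRAJ27. For TRBV16 there were 2 TRA-only cells against 26 paired cells, all in replicate 1 (log2 fold change -2.17, adjusted p = 0.0459). The test kept only TRAs with at least 1 TRA-only cell and counted cells, so cells of 1 clone were treated as independent. The ratio of a gene thus follows the sizes of the few clones kept. For TRBV16 these were a TRA with 20 and a TRA with 6 paired cells. The calls describe these clones, and neither call was stable. No gene was called without the block, without the filter on low counts, or when replicate 2 or replicate 3 was left out. When TRBV13-2 and the joint name TRBV12-2+TRBV13-2, which the files use for part of the contigs, were counted together (a setting added after the data were seen), TRBV1, TRBV13-3 and TRBV16 were called and TRBV2 was not.

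Cell Ranger's own clonotype listed a TRB for 61, 56 and 15 TRA-only cells. It listed none for 15 and 49 matched cells of replicates 1 and 2, and 1 cell of replicate 2 without a matching paired cell had one.

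TRB sequence was found on many of these barcodes in the unfiltered contigs, which include those not called productive. At least 1 nonproductive TRB contig was on 23 of the 121 TRA-only cells (19.0%, interval 12.4% to 27.1%) of replicate 1, 53 of the 194 (27.3%, 21.2% to 34.2%) of replicate 2 and 14 of the 63 of replicate 3 (22.2%, 12.7% to 34.5%). Paired cells had one, beside their productive TRB, in 15.2%, 9.94% and 8.79% of cells. TRA-only cells were higher in 3 of 3 libraries, by 11.5 percentage points ± 6.98 (SD, exact sign-flip permutation test, p = 0.25, the smallest possible). The intervals of the 2 groups were apart in replicates 2 and 3 and overlapped in replicate 1. A cell whose only TRB contig was not called productive falls under the rule that chose these cells, so part of this difference is set by the rule.

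The contigs were of several kinds. The most frequent was a contig with a whole in-frame CDR3 that was not flagged as full-length. It was on 14, 34 and 8 TRA-only cells (11.6%, 17.5% and 12.7%) against 3.75%, 2.13% and 1.76% of paired cells. Contigs without that flag are called short here, whatever their length in bases. In-frame means that the listed CDR3 ran from a cysteine to a phenylalanine in whole codons without a stop. The frame of the V gene was not checked. Some listed CDR3s began at a cysteine in another frame, such as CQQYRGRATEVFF of a full-length TRBV19 contig in replicate 3. Full-length contigs with an in-frame CDR3 that were not called productive were on 4, 8 and 2 further cells. Other nonproductive TRB contigs were on 5, 11 and 4. Each of these classes can hold joins with a frameshift. With full-length contigs alone, a setting added after the data were seen, TRA-only cells had 8.26%, 9.79% and 9.52% and differed from paired cells by 2.67 percentage points ± 3.83 (higher in 2 of 3 libraries, exact p = 0.5). Without short contigs, the mean difference thus fell from 11.5 to 2.67 percentage points. Of the 134 short in-frame contigs on paired cells, 0 repeated the cell's own productive TRB. A short copy was thus not listed beside a productive copy of the same TRB. The higher share of short contigs on TRA-only cells is therefore set in part by the rule that chose them.

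A contig of a TRB J segment and the constant region with no V was the only TRB trace on 22, 52 and 14 TRA-only cells, and no TRB contig was on 76, 89 and 35 (62.8%, 45.9% and 55.6%). Contigs without V were on 25.6%, 33.5% and 27.0% of TRA-only cells in all and on 32.1%, 27.8% and 20.1% of paired cells, with no common order.

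**Figure D3:**
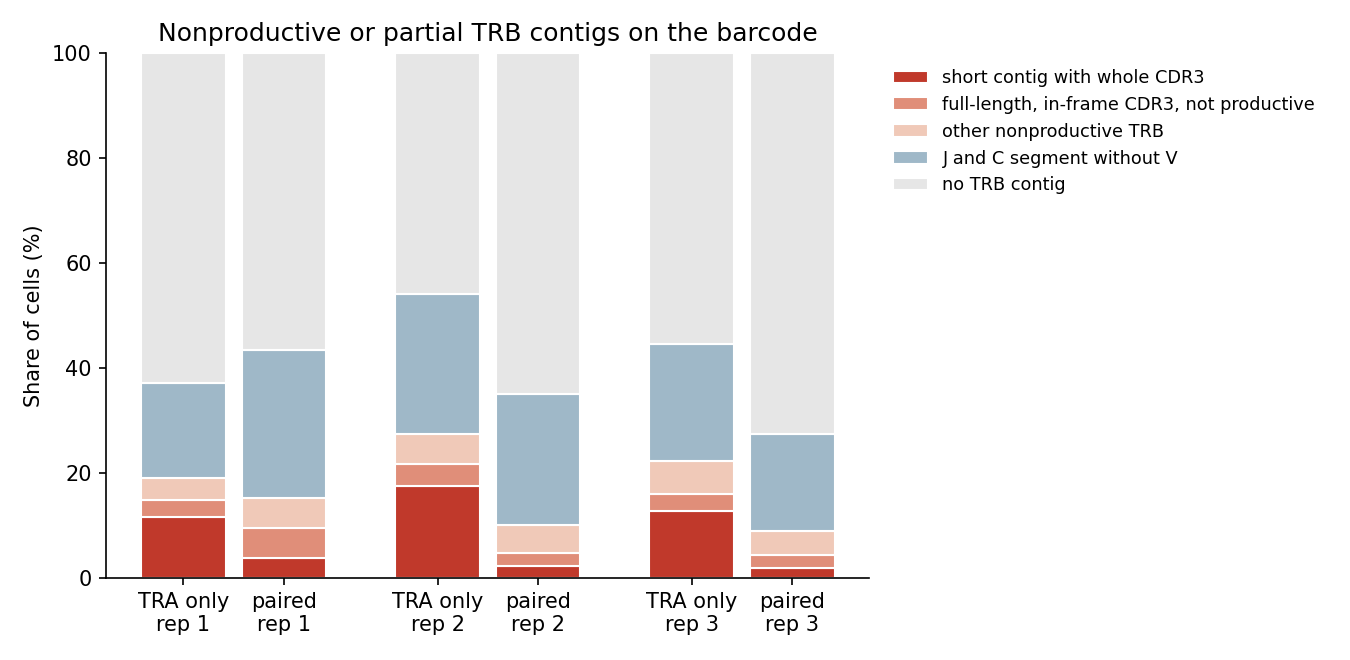
Stacked shares of cells (y axis, percent) by the kind of TRB contig not called productive, each cell counted once in the order of the legend, for TRA-only and paired cells of each library. The dark red part, short contigs with a whole in-frame CDR3, takes 11.6%, 17.5% and 12.7% of TRA-only cells and 3.75%, 2.13% and 1.76% of paired cells. The rule that chose the TRA-only cells sets part of this difference.

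Where it could be compared, the short contig usually carried a TRB of the paired cells with that TRA. These were TRA-only cells with a short in-frame TRB contig and a TRA that matched a paired cell. At least 1 such contig had the nucleotide CDR3 of a TRB of those paired cells for 4 of 7 cells (replicate 1), 15 of 15 (replicate 2) and 3 of 4 (replicate 3). TRAs seen with several TRBs were included, and any of their TRBs counted. In replicate 2, a matching cell with a TRAV3-3/TRAJ39 TRA also had a short TRBV15 contig that did not match. The paired cells were found by their TRA, and the TRB was compared afterwards. One of the matching contigs was the printed TRBV19/TRBJ1-5 of TRAV3-3/TRAJ15 in replicate 2, with 11 UMIs on 531 bases. Another was the printed TRBV31/TRBJ2-7 of TRAV3-3/TRAJ26 in replicate 3, with 4 UMIs on 307 bases. The 59 short in-frame contigs lay on 56 cells and had a median of 2, 3 and 2 UMIs and a median length of 465, 392.5 and 478 bases. Of the 30 such cells with a TRA in no paired cell, 4 had a CDR3 that was productive elsewhere in the library.

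In replicate 1 the printed TRBV19/TRBJ2-4, the TRB of the largest clone, was on a nonproductive contig of 2 TRA-only cells with that clone's TRA and of 3 with other TRAs. Outside cells, that TRB was on 2256 barcodes and the TRA on 813. The implied TRBs of the leading TRAs of replicates 2 and 3 were on 7 and 0. The TRA of 75.2%, 46.4% and 25.4% of TRA-only cells was also on a barcode outside cells, against 60.3%, 43.0% and 27.0% of paired cells with 1 TRA. The part of such RNA in the TRA-only cells was not tested.

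By V gene, TRBV13-2 led the nonproductive TRB contigs of TRA-only cells, with 17 contigs under that name, none of them full-length. The joint name TRBV12-2+TRBV13-2 had 1 contig, which was full-length. TRBV19 had 16, of which 4 were full-length. Of the short in-frame contigs, TRBV13-2 was on 1 of 15, 13 of 36 and 2 of 8. Under either of its names it made up 14.6%, 16.4% and 16.95% of the distinct productive TRBs of paired cells. Its share of short contigs was below that in replicate 1 and above it in the others. The units differ, since short contigs were counted singly, with repeats of a clone. Short TRBV19 contigs numbered 7, 4 and 0 per library, or 46.7%, 11.1% and 0% of the short in-frame contigs. The gene made up 8.18%, 8.59% and 9.48% of the distinct productive TRBs of paired cells. The 7 contigs of replicate 1 included the largest clone's TRB on 2 cells with its TRA and on 3 with other TRAs. That share thus rests mostly on 1 repeated TRB, and is not a measure of how often the V gene was used. TRBV13-2 and TRBV19 were chosen after their values were seen.

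The barcodes with most UMIs on a nonproductive TRB contig held short and full-length ones. In replicate 1, a cell with TRAV9-1/TRAJ50 had 12 UMIs on a full-length TRBV5 and TRBJ2-7 contig whose CDR3 call ended within the junction (tgtgccagcagccaagagggg), and a cell with TRAV9-1/TRAJ48 had 5 UMIs on TRBV10 and TRBJ1-2, with no CDR3. GRCm38 annotates TRBV10 as a pseudogene, but productive TRBV10 chains were found in these libraries. TRBV10 was the implied V gene of 4 TRA-only cells, from 16 paired cells with the same TRAs. In replicate 2 the leading barcodes all had the TRA TRAV3-3/TRAJ15. A full-length TRBV29 and TRBJ1-3 contig with no CDR3 had 14 UMIs on one and 11 on another, tied with the short TRBV19/TRBJ1-5 contig described above. In replicate 3, TRAV16N/TRAJ18 came with TRBV31 and TRBJ2-3 at 8 UMIs, and the other was TRAV3-3/TRAJ26 with its short TRBV31/TRBJ2-7 contig.

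Some of the full-length nonproductive TRBs were also on paired cells of the same clone. A nonproductive TRBV29 and TRBJ1-3 contig was on 3 of the 7 paired cells with TRAV3-3/TRAJ15 and on 1 of the other 2618 paired cells of replicate 2. In replicate 1, TRBV12-1 and TRBJ2-4, found on TRA-only cells with TRAV12D-2/TRAJ16, was on 71 of its 249 paired cells (28.5%, interval 23.0% to 34.6%) and on 10 of the other 1619 (0.618%). Its CDR3, as deposited on 2 TRA-only cells with no closing phenylalanine, is shown with the same use of capitals.
TRBV12-1/TRBJ2-4, nonproductive: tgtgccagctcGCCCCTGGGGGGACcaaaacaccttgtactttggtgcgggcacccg
TRBV10 and TRBJ1-4 was on 13 of 31 paired cells with TRAV6-6/TRAJ39 against 3 of 2594 others in replicate 2, and TRBV10 and TRBJ1-5 on 5 of 13 with another TRAV9-1/TRAJ48 TRA against 2 of 1855 others in replicate 1. These last 3 were chosen after their values were seen.

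In all, 12 such TRBs of TRA-only cells could be looked up in paired cells of the same TRA, and 6 were found there. The other 6 had 1 to 49 paired cells. In 2 of these, TRBV5 and TRBJ2-1 with TRAV3-3/TRAJ34 (49 paired cells) and TRBV1 and TRBJ2-5 with TRAV3-1/TRAJ34 (9 paired cells), the contig had the nucleotide CDR3 of a productive TRB of those paired cells. Of the 6 that were found, the nucleotide CDR3 listed on the TRA-only cell was also listed on 6 paired cells of the clone for TRBV12-1 and TRBJ2-4 and on 3 for TRBV17 and TRBJ1-2 with TRAV7-3/TRAJ26, and the others list no CDR3.

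**Figure D4:**
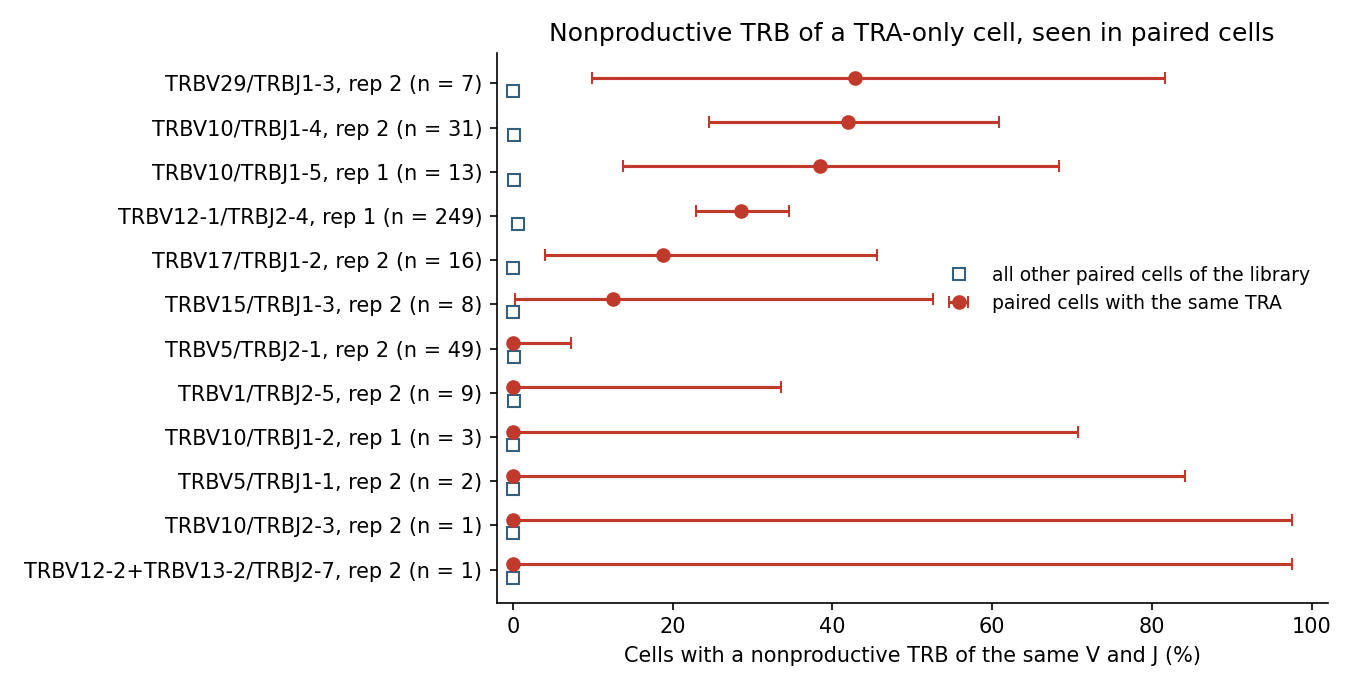
For each full-length nonproductive TRB on a TRA-only cell (rows: V gene, J gene, library and number n of paired cells with that cell's TRA), the share of those paired cells (circles, with exact 95% intervals) and of all other paired cells of the library (squares) with a nonproductive TRB of the same V and J, in percent. The circles of the top rows lie at 42.9%, 41.9%, 38.5% and 28.5%, and all squares lie below 1%.

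TRAV and TRAJ genes of TRA-only cells spanned the α locus on chromosome 14, with 53 of 68 TRAV and 40 of 42 TRAJ genes seen. Positions are from GRCm38 with GENCODE M21. The leading TRAV gene, TRAV12D-2 (chr14:52915799-52916426, plus strand), was in 18, 11 and 2 cells, a mean of 7.91% ± 6.16 (SD, n = 3 libraries) against 8.42% ± 6.83 of paired cells. It was highest in replicate 1, where 17 of the 18 cells were the TRAV12D-2/TRAJ16 clone. TRAV6N-7 was in 7, 14 and 5 cells, TRAV3-3 (chr14:53665929-53666506) in 2, 19 and 5, TRAV5-4 in 7, 16 and 3, TRAV21-DV12 in 5, 4 and 5 and TRAV9-1 in 7, 10 and 2. The 19 TRAV3-3 cells of replicate 2 included the 10 cells of TRAV3-3/TRAJ15.

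Among J genes, TRAJ23 (chr14:54196081-54196140) was in 15, 20 and 0 cells, a mean of 7.57% ± 6.64 against 5.81% ± 1.53 of paired cells. TRAJ16 (chr14:54203134-54203194) was in 18, 0 and 0 cells, 17 of them from the largest clone. TRAJ48 was in 7, 8 and 3 cells, TRAJ26 in 5, 4 and 5, TRAJ15 in 0, 16 and 3 and TRAJ34 in 2, 12 and 3. Among TRA-only cells, TRAJ16 was thus in replicate 1 alone, and TRAJ15 was in replicates 2 and 3. Paired cells of every library had both genes, TRAJ16 in 262, 15 and 3 cells and TRAJ15 in 42, 120 and 14.

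Counted as distinct rearrangements, each once per group and library whatever its number of cells, no gene passed the test. A large clone is still more likely to give a TRA-only cell. A TRA with both kinds of cell counts in both groups, which the test treats as separate counts. EdgeR called 0 of 55 TRAV genes (0%), with 5 at an unadjusted p under 0.05, and 0 of 42 TRAJ genes (0%), with 2. DESeq2 called 0 of both, with 0 at an unadjusted p under 0.05. The 6 leading TRAV genes had log2 differences from -0.12 to 0.30 and the 6 leading TRAJ genes from -0.66 to 0.30, with adjusted p of at least 0.94. The lowest adjusted p of a TRAV gene, 0.30, was shared by TRAV1, the V gene of MAIT cells, TRAV6-1 and TRAV7N-4. Each had 0 rearrangements in TRA-only cells, against 13, 25 and 4 in paired cells for TRAV1, 11, 21 and 3 for TRAV6-1 and 16, 16 and 2 for TRAV7N-4. For TRAJ it was 0.366, shared by TRAJ58, with 4, 5 and 3 rearrangements against 22, 18 and 5 (log2 fold change 1.26), and TRAJ47, with 0, 1 and 0 against 22, 20 and 8 (log2 fold change -2.46). These genes were chosen after their values were seen.

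**Figure D5:**
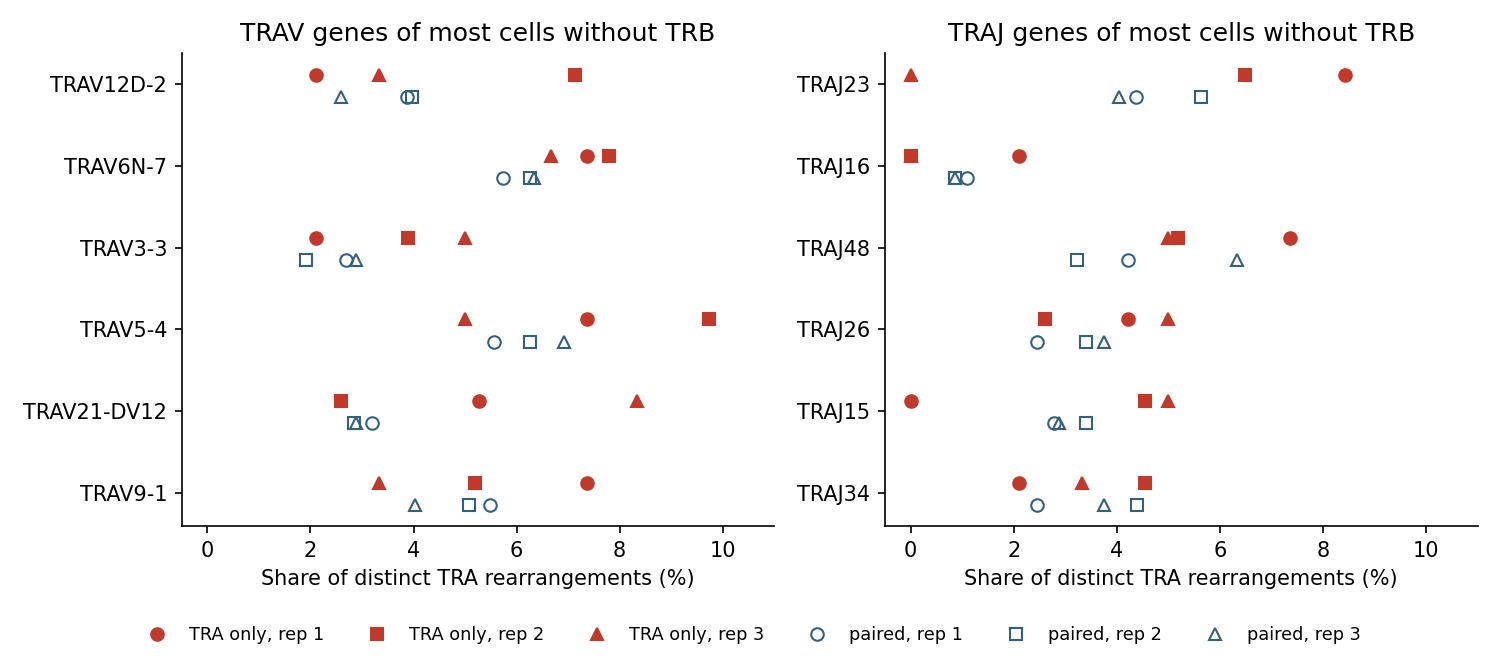
Share of distinct TRA rearrangements (x axis, percent) that used each of the 6 TRAV (left) and 6 TRAJ (right) genes with the highest mean share of TRA-only cells. Filled symbols are TRA-only and open symbols paired cells, 1 symbol shape per library; TRAV12D-2 spans 2.11% to 7.14% in TRA-only cells and 2.59% to 3.97% in paired cells.

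Markers of other T cell types were rare. Invariant NKT cells carry an α chain of TRAV11 or TRAV11D with TRAJ18, and MAIT cells one of TRAV1 with TRAJ33. Neither kind was in any of the 378 TRA-only cells, which allows up to 0.794% for each, and 7 and 17 of 4891 paired cells had them. V genes that can also serve the δ chain were in 5, 8 and 8 TRA-only cells (4.13%, 4.12% and 12.7%) against 6.10%, 4.76% and 5.28% of paired cells, highest in replicate 3, with an interval of 5.65% to 23.5% that overlapped those of the other libraries. A δ chain (TRD) contig was on 0, 0 and 2 TRA-only cells, and no γ chain or immunoglobulin contig was on any.

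No TRA-only cell had a second TRA (0 of 378), and 10.4%, 9.98% and 5.03% of paired cells had one. Barcodes with at least 2 TRAs and no TRB were found outside called cells, 114, 26 and 5 per library. The 0 thus depends on the cell calling of the deposited files and is not read as a trait of TRA-only cells.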

How the data were processed

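CD45+ cells of sciatic nerves from neuropathic NOD.AireGW/+ mice were profiled by 10x Genomics V(D)J sequencing, and per the labels all 3 libraries belong to 1 group. The authors called cells and assembled contigs with Cell Ranger on mm10 (version not given in the sources used here) and deposited counts of UMIs and reads per contig, contig annotations, and per clonotype a cell count and a fraction of cells. Consensus sequences were left aside. Replicate 1's contig table has fewer columns than the others, so the software version may differ. Where an upper limit is given for a count of 0, 3 counts set it. PCR reads are not independent molecules, and UMIs limit the precision.

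The members, lists and tests were chosen with earlier results of these data known. A match needed the same V gene, nucleotide CDR3 and J gene within a library. Differences between TRA-only and paired cells were tested over libraries with exact two-sided sign-flip permutation tests. Genes were tested with edgeR 4.0.16 (quasi-likelihood, library as a block, at least 10 counts in all) and Benjamini-Hochberg adjustment over all genes tested, on distinct rearrangements for TRAV and TRAJ and on cells for TRBV. DESeq2 1.42.0 was an alternative. The gene tests were tested on simulated data. Libraries are the replicates. Named were the 6 TRAV, 6 TRAJ and 6 implied TRBV genes of most cells, genes called, the 3 TRAs of most TRA-only cells per library, and the 2 barcodes per library with most UMIs on a nonproductive TRB with V and J. Junctions were matched to GRCm38 segments (GENCODE M21), exactly or past 1 mismatch followed by at least 6 matches. Python 3.11.15, pandas 2.3.3, scipy 1.17.1 and R 4.3.3 were used. Doublets were not removed, and gene expression was not analysed here.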

Additional observations from a re-analysis of the deposited data

Results flagged for a closer look

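Barcodes that were not called cells also carried TRA without TRB, a signal outside the cells described. At least 2 productive TRAs and no TRB were on 114 such barcodes in replicate 1, 26 in replicate 2 and 5 in replicate 3, each above the 3 counts that a count of 0 allows. They are not compared with cells, since barcodes were divided into cells and others by the cell calling of the deposited files. In all, 3712, 387 and 237 barcodes outside cells had TRA and no TRB, and 92.2%, 75.7% and 70.5% of them had 1 UMI on it.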

How the results depend on the processing

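The number of libraries, 3 of 1 condition, limits the sign-flip tests to an exact p of 0.25 or more, and shares in replicate 3 rest on 63 TRA-only cells. Taking productive TRBs from all contigs or requiring exactly 1 TRA left the share of TRA-only cells as it was, since neither changed a cell. That share was 12.7% with at least 3 UMIs per chain and 8.88% of cells with a TRA, and 5.28% to 7.20% when each library was left out. The share matched to a paired cell was 33.2% to 48.2% under its other settings and 38.7% to 58.2% with a library left out. The match difference was 20.6 percentage points by distinct TRAs, where 0 is not the value of no difference, and -4.46 to 0.80 with a library left out. The TRA UMI log2 ratio was 0.037 in reads and -0.37 to 0 with a library left out. The share with a nonproductive TRB was 15.8% with at least 2 UMIs and 9.19% with full-length contigs, and its difference from paired cells was above 0 in the mean under all settings run (2.67 to 15.4 percentage points). TRAV and TRAJ genes gave 0 calls under all settings run. Implied TRBV genes gave 1 call with no normalization beyond the totals or with DESeq2, and 0 without the filter, with at least 3 UMIs or against all paired cells whose TRA recurs, and 0 to 1 with a library left out. By distinct TRAs they gave 0, which is void, since both groups then hold the same TRAs. Without the replicate block, which the main test holds because both groups come from the same libraries, TRAV, TRAJ and implied TRBV genes gave 0, 0 and 0 calls. Of the 94 alternative values, 60 were counted as the same, 15 as moved, 15 as weaker and 4 changed sign. A share was the same within the SD of its main value, and a difference if it kept its sign. Gene tests were the same at a similar number of calls, whichever genes were called. Weaker means that the call of TRBV2 or TRBV16 was lost. The causes were not tested.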
